A study of Mus musculus with 9 samples.

Results

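Zeb, Snail, Twist and Prrx1 proteins are transcription factors that can switch epithelial cells to a mesenchymal state, the epithelial-mesenchymal transition (EMT). Their genes were followed in 4T1 cells, a mouse mammary tumour line, with and without knockout of Nat10, which encodes an RNA acetyltransferase. The members were chosen by gene name, Zeb1, Zeb2, Snai1, Snai2, Twist1, Twist2 and Prrx1, and 6 of these 7 names were followed among the 22469 genes of the deposited table. Snai2 was not analysed here. The assay was stranded sequencing of total RNA after removal of ribosomal RNA, in 3 groups of 3 biological replicates. The WT group is the 4T1 line without the knockout, and KO-c19 and KO-c43 are 4T1 lines labelled as Nat10 knockouts. All groups were untreated, were seeded at 300000 cells on a 6 cm dish and were lysed after 48 h. The labels do not say how the lines were made or whether each grew from a single cell. An effect of the knockout therefore cannot be told apart from other differences between a knockout line and WT. Likewise, a difference between KO-c19 and KO-c43 cannot be told apart from a difference between any 2 lines. The replicates are cultures of the same line, and each p-value below measures the spread between such cultures.

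As background, Zeb1 and Zeb2 are zinc-finger homeodomain proteins, and Snai1 and Snai2 are zinc-finger proteins. Both families bind the E-box, a short DNA motif, in the promoters of epithelial genes such as Cdh1 (E-cadherin) and recruit corepressors. Twist1 and Twist2 are basic helix-loop-helix (bHLH) proteins that pair with E proteins, and Id proteins tie up those partners. Prrx1 is a paired-type homeodomain protein of embryonic mesenchyme. MicroRNAs of the miR-200 family lower Zeb1 and Zeb2, and Zeb proteins in turn repress the miR-200 genes.

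Values are normalized counts, which are gene counts that the authors scaled by library. Totals lay between 45628576 and 50123222 per library, and 1 read was worth between 0.822 and 1.11 normalized counts. Mitochondrial genes took 2.58% to 3.32% of the total in WT, 3.96% to 4.51% in KO-c19 and 3.63% to 4.11% in KO-c43, and the ribosomal RNA gene Rn18s took 2.06% to 4.40%, 0.916% to 1.26% and 1.27% to 2.59%. Nat10 itself fell from 6454 ± 40.9 (SD, n = 3) in WT to 1740 ± 26.4 (KO-c19) and 1746 ± 20.6 (KO-c43), a log2 change of -1.89 in both (limma adjusted p = 1.78e-17 and 1.26e-17), so transcript from the gene remained in both lines. Of the mammary epithelial markers, 6 of 7 were measured, and their summed level was 95120 to 99753 in WT, 73560 to 79695 in KO-c19 and 67628 to 69893 in KO-c43. Of these 6 genes, Cdh1, Epcam, Krt14 and Krt19 fell in both lines, and the median log2 change was -1.48 (KO-c19) and -2.04 (KO-c43). Krt8 and Krt18, the keratins of simple epithelia, rose slightly, by 0.28 and 0.29 on the log2 scale in KO-c19 and by 0.18 and 0.17 in KO-c43. Leukocyte markers, 4 of 8 measured, summed to 461 to 494 (WT), 270 to 334 (KO-c19) and 183 to 241 (KO-c43), and their defining gene Ptprc averaged 1.04, 9.09 and 0.951 in the 3 groups, while Csf1r fell from 293 to 14.9 and 12.6. Endothelial markers, 2 of 5 measured, summed to at most 21.3 in any library. Fibroblast markers, 4 of 7 measured, summed to 314 to 327, 838 to 904 and 410 to 510 and were carried by the receptor gene Pdgfra, while Col1a2 and Pdgfrb were listed at 0 in every KO-c19 library. The part of these markers and shares in the results below was not tested. In bulk RNA, fewer cells that express a gene and less RNA per cell cannot be told apart.

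Both Nat10 knockout lines had more Zeb2, Twist1, Twist2 and Prrx1 transcript than WT and lower values of the scarce Zeb1, and Snai1 rose slightly in KO-c19. Genes were tested with limma on log2(normalized count + 1) where at least 3 libraries held at least 10, which kept 17579 genes and 5 of the 6 members, with calls at an adjusted p under 0.05. In KO-c19 against WT, 5 members were called higher, where 32.8% of all genes tested were called higher and 34.9% lower (67.6% in either direction). In KO-c43 against WT, 4 members were called higher and 1 was not called, where 32.5% of genes were called higher and 33.1% lower (65.6% in either direction). Between the lines, 2 members were higher in KO-c43, 1 was lower and 2 were not called, where 39.4% of genes were called. No support is drawn from these counts, because Twist2 and Prrx1 passed the filter only through the knockout libraries. The median change of all genes tested against WT was 0.003 (KO-c19) and 0.007 (KO-c43) on the log2 scale. Both comparisons share the WT libraries.

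**Figure D1:**
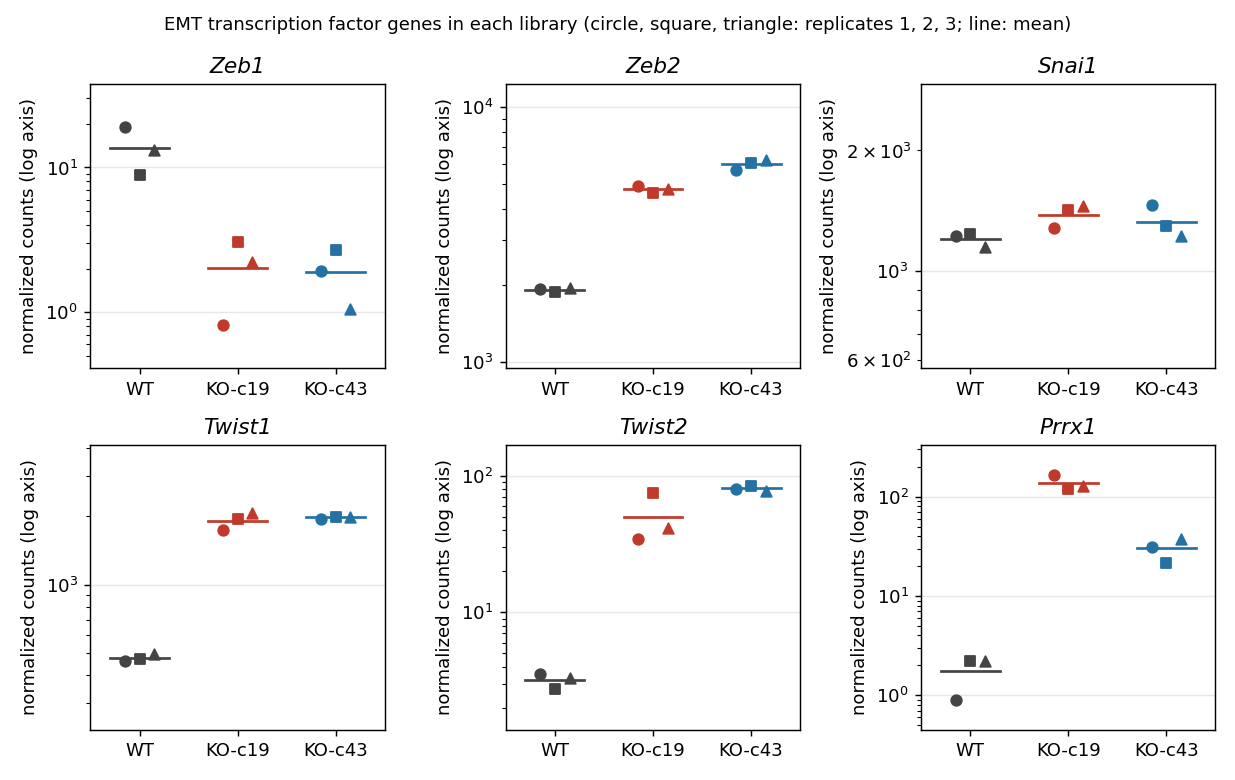
Normalized counts of the 6 measured members in each of the 9 libraries, on a log scale, by group (WT, KO-c19, KO-c43), with points for libraries and lines for group means. Zeb2, Twist1, Twist2 and Prrx1 lie higher in every knockout library than in any WT library, Zeb1 lies lower, and Snai1 moves little.

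Zeb2 (ENSMUSG00000026872) lies on the minus strand of chromosome 2, from 44873644 to 45007408 as the table gives it. The table names no build, and its coordinates are not those of GRCm38. Its level was 1936, 1884 and 1942 normalized counts in WT, 4912, 4587 and 4790 in KO-c19, and 5691, 6059 and 6196 in KO-c43. The 3 groups did not overlap, and KO-c43 stood highest. Zeb2 was 2.48-fold higher in KO-c19 (log2 change 1.31 ± 0.04 SE, limma adjusted p = 1.12e-14) and 3.11-fold higher in KO-c43 (1.64 ± 0.04, adjusted p = 4.77e-16). The lines themselves differed by 0.33 ± 0.04 (adjusted p = 4.27e-06), in a comparison where 21.1% of all genes were called higher and 18.3% lower in KO-c43. Scaling each library by its total turned the counts of that comparison from 3717 higher and 3211 lower to 2955 higher and 4314 lower, and gave Zeb2 a difference of 0.28 between the lines.

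Zeb2 is known for its regulation by the miR-200 family, whose members fall into 2 groups by seed. Their mature sequences, from RefSeq on GRCm38.p6, are shown because the sites counted next are matches to these seeds (bases 2 to 8, in capitals).
mmu-miR-200b-3p: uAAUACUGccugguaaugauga
mmu-miR-200c-3p: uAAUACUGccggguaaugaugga
mmu-miR-429-3p: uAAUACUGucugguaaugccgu
mmu-miR-200a-3p: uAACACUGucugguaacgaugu
mmu-miR-141-3p: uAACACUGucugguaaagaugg
The 3' UTR of the Zeb2 transcript with the longest coding sequence (GENCODE M21, GRCm38) is 1450 bases long. It held 8 matches to the seeds, 5 of CAGTATT for the AAUACUG group, at UTR positions 393, 458, 820, 905 and 1039, and 3 of CAGTGTT for the AACACUG group, at positions 209, 741 and 782. Of each group, 2 sites are shown with their surroundings on the transcript strand, with the match in capitals and GRCm38 coordinates in the name.
Zeb2 UTR position 209, chr2:44988350-44988372 minus strand: attttgtaCAGTGTTaaggccta
Zeb2 UTR position 393, chr2:44988166-44988188 minus strand: ccatacatCAGTATTttattatt
Zeb2 UTR position 741, chr2:44987818-44987840 minus strand: tccttgtaCAGTGTTcagagggt
Zeb2 UTR position 820, chr2:44987739-44987761 minus strand: acccgtgtCAGTATTagacgact
At least 1 such match was found in the 3' UTR of 27.2% of the 11752 tested genes that had one annotated, and 4 genes, Zeb2 included, had 8 or more. A match describes the letters only. The miR-200 genes themselves, and the miR-205, miR-34, miR-30, miR-203 and miR-101 genes of the same list, were not analysed here.

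Zeb2os, a noncoding gene on the strand opposite Zeb2, moved with it. It was at 13.9, 14.9 and 23.01 normalized counts in WT, 70.3, 78.7 and 75.1 in KO-c19, and 97.2, 81.1 and 80.2 in KO-c43. Every knockout library lay above WT, with log2 changes of 2.08 ± 0.20 (limma adjusted p = 3.41e-08) and 2.28 ± 0.20 (adjusted p = 1.06e-08). Zeb2os and Zeb2 share 653 exon bases on opposite strands in GENCODE M21. The library kit keeps strand per the labels, but whether counting used it is not given in the sources used here, so reads of the pair cannot be told apart in the shared bases.

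Zeb1 (ENSMUSG00000024238), the close relative of Zeb2, was scarce. It was at 18.9, 8.88 and 13.1 normalized counts in WT, 0.822, 3.04 and 2.23 in KO-c19, and 1.94, 2.71 and 1.05 in KO-c43. Both knockout lines lay below every WT library and overlapped each other. Only 2 libraries reached 10, so Zeb1 was not tested in the fit. About 41 reads in WT against 6 in each line gave a WT level 7.26 times that of KO-c19 (95% interval 3.06 to 20.9) and 7.24 times that of KO-c43 (3.06 to 20.9), intervals that cover counting error only. A two-sided exact permutation test gave p = 0.1 for each line, the smallest that 20 divisions of 3 against 3 libraries can give. Without the filter, limma gave log2 changes of -2.29 (adjusted p = 0.000381) and -2.32 (adjusted p = 0.000347). Zeb1 and Zeb2 thus lay on opposite sides of their WT levels.

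Snai1 (ENSMUSG00000042821), on chromosome 2 from 167380115 to 167384735 in the table, encodes a repressor of Cdh1. It was at 1223, 1239 and 1147 normalized counts in WT, 1279, 1422 and 1454 in KO-c19, and 1467, 1298 and 1222 in KO-c43. The KO-c19 libraries lay just above WT, and KO-c43 overlapped both other groups. The Snai1 rise in KO-c19 had a log2 change of 0.20 ± 0.07 (limma adjusted p = 0.0118). This call was lost without WT replicate 3 (adjusted p = 0.0581), without KO-c19 replicate 3 (0.0563) and in the fit with neither trend nor robust estimation (0.0574). In KO-c43 the change of 0.14 ± 0.07 missed the threshold (adjusted p = 0.0698, 95% interval 0.002 to 0.28). It passed after scaling by totals (0.19, adjusted p = 0.0179), which also moved the median of all genes by 0.05. It also passed without KO-c19 replicate 1 (adjusted p = 0.0355), without KO-c43 replicate 3 (0.0187), after quantile normalization (0.0286) and with only the groups compared (0.0466). Snai1 in the 2 lines was not told apart (-0.06, interval -0.20 to 0.08, adjusted p = 0.497).

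Twist1 (ENSMUSG00000035799), on chromosome 12 from 34007670 to 34009829, drives mesenchymal programmes in neural crest and mesoderm. Its level was 459, 471 and 495 normalized counts in WT, 1742, 1939 and 2059 in KO-c19, and 1953, 1986 and 1986 in KO-c43. All 6 knockout libraries lay above WT, and the 2 lines overlapped. Twist1 was 4.01-fold higher in KO-c19 (log2 change 2.00 ± 0.06, limma adjusted p = 2.74e-15) and 4.15-fold higher in KO-c43 (2.05 ± 0.06, adjusted p = 2.02e-15). The difference between the lines was 0.05 with an interval of -0.07 to 0.17 (adjusted p = 0.54).

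Twist2 (ENSMUSG00000007805), on chromosome 1 from 91729183 to 91775751, was barely detected in WT. It was at 3.56, 2.76 and 3.32 normalized counts in WT, 34.4, 74.6 and 41.6 in KO-c19, and 80.6, 83.9 and 77.4 in KO-c43. No knockout library overlapped WT, and every KO-c43 library lay above every KO-c19 library. About 9, 153 and 250 reads stand behind the groups, which put KO-c19 at 16.01 times WT (95% counting interval 8.22 to 35.7) and KO-c43 at 26.2 times (13.6 to 58.0). The fitted log2 changes were 3.53 ± 0.27 (limma adjusted p = 2.09e-09) and 4.28 ± 0.27 (adjusted p = 1.55e-10). KO-c43 exceeded KO-c19 by 0.75 ± 0.27 (adjusted p = 0.035). That call between the lines was lost without KO-c19 replicate 1 (adjusted p = 0.164) or 3 (0.12), without KO-c43 replicate 1 (0.0855), 2 (0.104) or 3 (0.075), and in the fit with neither trend nor robust estimation (0.0546). With a pseudocount of 5 in place of 1, the changes against WT were 2.68 and 3.38. Gm29100, a noncoding gene antisense at the Twist2 start that shares 1477 exon bases with it, averaged 8.01, 112 and 165, with log2 changes of 3.78 (adjusted p = 1.57e-09) and 4.32 (adjusted p = 3e-10), and reads of the pair cannot be told apart in the shared bases.

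Prrx1 (ENSMUSG00000026586), on the minus strand of chromosome 1 from 163072688 to 163141280, was the member with the largest fitted change in KO-c19. It was at 0.902, 2.22 and 2.19 normalized counts in WT, 165, 121 and 128 in KO-c19, and 31.0, 21.7 and 37.7 in KO-c43. The 3 groups did not overlap, and here KO-c19 stood highest. About 5, 435 and 92 reads stand behind the groups, so KO-c19 was 81.9 times WT (95% counting interval 34.9 to 254) and KO-c43 17.4 times (7.18 to 54.8). The fitted log2 changes were 5.68 ± 0.29 (limma adjusted p = 7.03e-12) and 3.50 ± 0.29 (adjusted p = 5.83e-09). These sizes depend on the pseudocount and were 4.39 and 2.35 with a pseudocount of 5. KO-c43 was lower than KO-c19 by 2.18 ± 0.29 on the log2 scale (adjusted p = 7.24e-06), whereas Twist2 and Zeb2 were higher in KO-c43. Gm20471 and Gm37644, predicted genes inside Prrx1 on the opposite and the same strand, followed the same order, with means of 1.10, 65.5 and 13.2 and of 0.301, 57.2 and 13.8. They share 0 exon bases with Prrx1 in GENCODE M21. Whether their reads came from unspliced Prrx1 transcript was not tested.

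**Figure D2:**
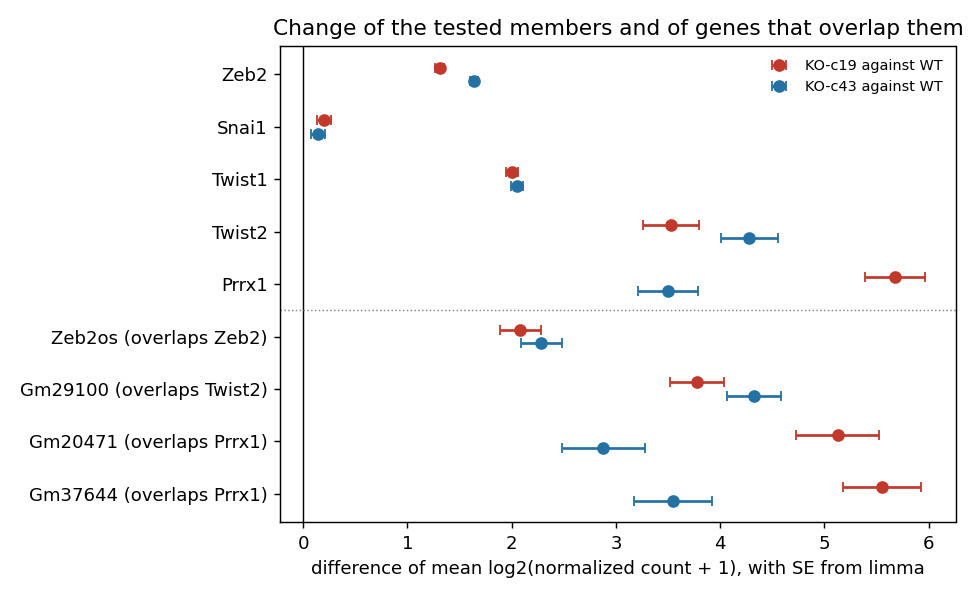
Log2 change against WT of each tested member and of the genes that overlap it, for KO-c19 and KO-c43, with bars for the SE of the limma fit. Zeb2, Twist1, Twist2 and Prrx1 lay above 0 in both lines, and Snai1 lay near 0. Prrx1 and its overlapping genes rose more in KO-c19 than in KO-c43, and Twist2 and Zeb2 rose more in KO-c43.

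Divided by transcript length, the members formed a different order in WT and in the knockout lines. Per kilobase, Snai1 was the highest member in WT at 742 ± 30.1 normalized counts (SD, n = 3), followed by Zeb2 at 360 ± 5.95 and Twist1 at 292 ± 11.3. The KO-c19 order had Twist1 first, at 1175 ± 98.2, and Zeb2 at 893 ± 30.7 and Snai1 at 854 ± 57.6 differed by less than their spread. In KO-c43 Twist1 at 1213 ± 11.7 and Zeb2 at 1121 ± 48.9 stood above Snai1 at 820 ± 77.3. Zeb1, Twist2 and Prrx1 stayed below 32 per kilobase in every group. Of the summed level, Snai1 made up 53.1%, 28.7% and 25.7% and Twist1 20.9%, 39.5% and 38.0%, in the order WT, KO-c19, KO-c43. Among 12273 tested genes with a length, Twist1 moved from percentile 40.9 in WT to 77.5 and 77.7 per kilobase, Zeb2 from 46.0 to 70.7 and 75.7, and Snai1 from 64.4 to 69.6 and 67.9. The order of the members depends on the length used. With the length of all annotated exons, Zeb2 ranked below Snai1 and Twist1 in all groups.

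**Figure D3:**
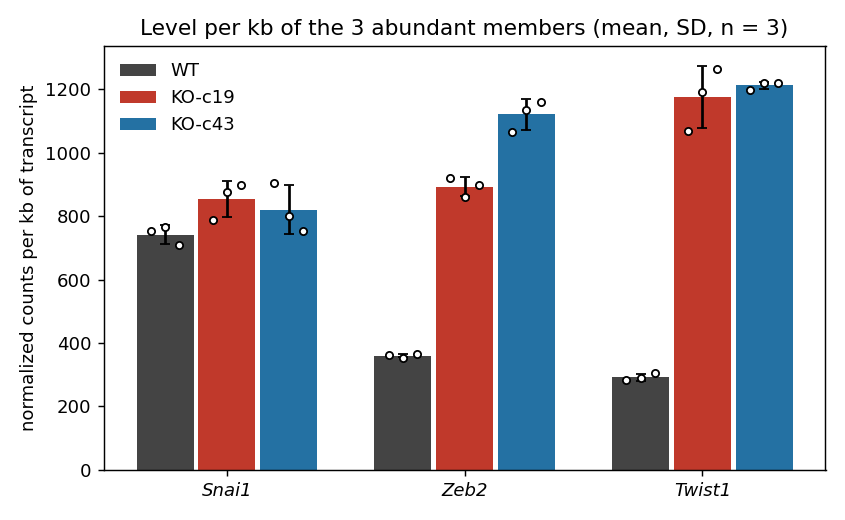
Normalized counts per kilobase of transcript for the 3 abundant members by group, with bars for the mean, error bars for the SD (n = 3) and points for libraries. Snai1 leads in WT at 742, and Twist1 leads at 1175 in KO-c19 and 1213 in KO-c43.

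Of 3 other genes of these families that were measured, both that were tested fell, beside 34.9% (KO-c19) and 33.1% (KO-c43) of all genes called lower. Every gene of a list named below as rising or falling in both lines had a limma adjusted p under 0.05 in each. Where such a gene passed the filter only through the WT libraries, lower was the only call possible. Snai3, a Snail relative, fell from 85.8 in WT to 5.96 in KO-c19 (limma adjusted p = 5.61e-07) and 3.43 in KO-c43 (adjusted p = 3.49e-08). It passed the filter only through the WT libraries and could only be called lower, so no support is drawn from its call. Scx, a bHLH factor of tendon, fell from 1270 to 998 and 1089. Prrx2 was at 4.95, 0.274 and 0.946 and was not tested. The other 9 names of the list were not analysed here.

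All 7 partners and inhibitors of the bHLH factors rose in KO-c19 (median log2 change 0.88) and in KO-c43 (0.76), where 32.8% and 32.5% of all genes were called higher. Among the E proteins, Tcf4 rose from 6996 to 12872 and 14086, and Tcf3 from 5696 to 8790 and 8335. Among the Id proteins, Id2 rose from 850 to 4060 and 3457, and Id4 from 21.7 to 437 and 111. So partner genes and inhibitor genes rose together. Of 10 tested other transcription factors linked to EMT, KO-c19 had 5 higher and 2 lower, and KO-c43 had 7 higher and 3 lower, beside 32.8% higher and 34.9% lower of all genes in KO-c19 and 32.5% and 33.1% for KO-c43. Foxc2, a forkhead factor, rose from 979 to 1939 and 2176, and Klf8 fell from 145 to 31.6 and 35.7.

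Most epithelial genes fell in both lines. Of 43 tested epithelial genes known to be lowered in EMT, KO-c19 had 36 lower and 4 higher, and KO-c43 had 39 lower and 3 higher, against 34.9% and 33.1% of all genes called lower. The median log2 change was -1.12 and -1.83, and 35 genes fell in both lines. Of the 43, 10 passed the filter only through the WT libraries, so that a lower value was the only change that could be called. Esrp1 was among these 10. Among the 29 genes that reached 10 in every library, KO-c19 had 23 lower and 4 higher. For KO-c43, 25 of these were lower and 3 higher. Their median log2 changes were smaller, at -0.715 and -1.09. With any 1 WT library left out, the genes that passed only through WT no longer met the filter and were not tested. The counts called lower were then 24 to 26 in KO-c19 and 29 to 30 for KO-c43. Cdh1 fell from 26262 ± 327 normalized counts in WT to 5797 ± 293 (KO-c19) and 3731 ± 47.9 (KO-c43). The desmosome genes Dsp, Pkp2 and Dsg2 fell as well, Dsp from 9575 to 3754 and 1292, Pkp2 from 3064 to 430 and 864, and Dsg2 from 3144 to 291 in KO-c19 and to 0 in all 3 KO-c43 libraries. Esrp1, which sets epithelial splicing, fell from 4373 ± 144 to 0 in all 3 KO-c19 libraries and to 0, 0 and 1.05 in KO-c43. The genes called higher in KO-c19 were Ppl, Krt8, Krt18 and Spint1. With a change of at least 2-fold also required, 23 (KO-c19) and 30 (KO-c43) genes were lower. The share of all genes that pass this stricter rule was not computed, so no support is drawn from these counts.

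A list of epithelial transcription factors and Esrp splicing regulators that oppose Zeb factors had 13 tested genes, of which 6 are also among the epithelial genes above. KO-c19 had 10 lower and 2 higher, and KO-c43 had 10 lower and 3 higher, beside 34.9% and 33.1% of all genes called lower. Without Esrp1 and Esrp2, 8 of 11 factors were lower in each line. Of the 13, 3 passed the filter only through the WT libraries, Esrp1 and Grhl3 among them, and could only be called lower. Among the 8 that reached 10 in every library, 5 were lower in each line, while 2 (KO-c19) and 3 (KO-c43) were higher. The median log2 changes of these 8 were -0.267 and -0.643. Grhl3, a grainyhead factor, fell from 158 to 2.57 and 0.301, and Elf3 from 654 to 373 and 263. Klf4, which also serves stem cell programmes, rose from 223 to 416 and 481.

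Mesenchymal genes divided. Of all genes, 32.8% (KO-c19) and 32.5% (KO-c43) were called higher and 34.9% and 33.1% lower. Of 28 tested genes known to be raised in EMT, KO-c19 had 14 higher and 11 lower, and KO-c43 had 14 higher and 12 lower. The median log2 change was 0.13 and 0.25, and of the 28 genes 3 passed the filter only through the WT libraries and 1 only through the knockout libraries. Vim, the mesenchymal intermediate filament, rose from 37937 to 78057 and 200832, S100a4 from 17031 to 49480 and 58520, and the protease gene Mmp3 from 861 to 21284 and 12307. In the other direction, Mmp9, a gelatinase gene, fell from 15912 to 4176 and 1902, and the coreceptor gene Nrp1 from 3583 to 772 and 992. Of the fibroblast markers in this list, Pdgfra was higher and Col1a1 and Col1a2 were lower in both lines. These 2 collagen genes passed the filter only through the WT libraries and could only be called lower. No support is drawn from their calls.

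**Figure D4:**
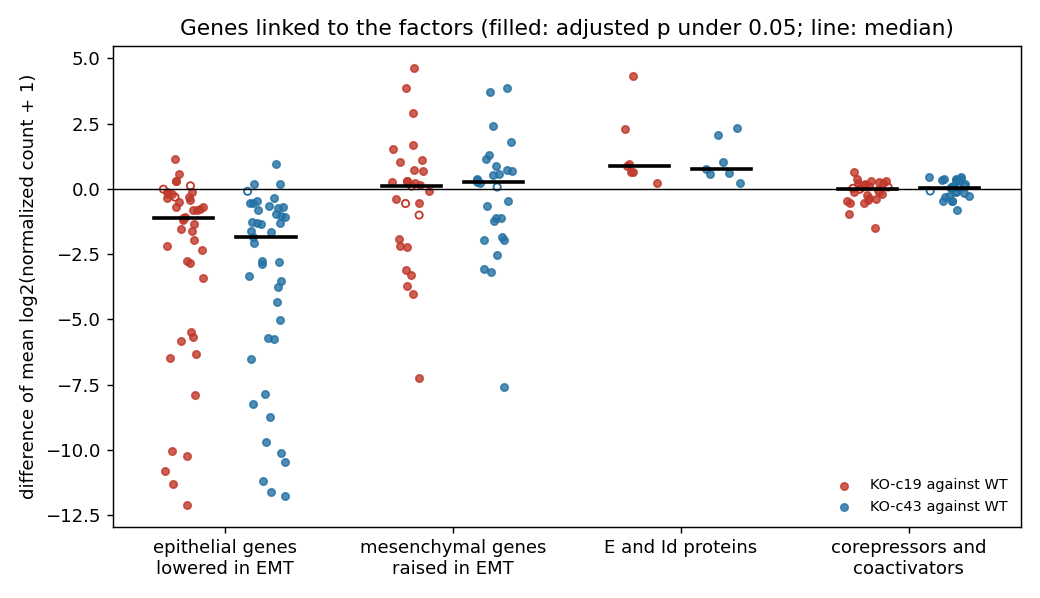
Log2 change against WT of each tested gene in the lists of epithelial genes, mesenchymal genes, E and Id proteins, and corepressors and coactivators, for KO-c19 and KO-c43, with 1 point per gene (filled where called) and a line for the median. Epithelial genes lie mostly below 0, E and Id proteins above it, and the others on both sides.

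The E-box CAGGTG, or CACCTG on the other strand, is the motif that Zeb and Snail proteins bind, and its letters were sought on both strands in the 250 bases before each RefSeq start (GRCm38.p6). It occurred in 17.2% of 32851 windows and in any window of 18.7% of the tested genes. Among the members, the Snai1 window held 1 match, 126 bases before the start, and none was found in the windows of Zeb2, Twist1, Twist2 and Prrx1. Windows were supplied for only 25 of the 43 tested epithelial genes, and 17 of these (68.0%) held a match. Of 21 tested mesenchymal genes with a window, 1 did (4.76%). The epithelial list includes known direct targets of these proteins, so no support is drawn from its share. Ap1m2, an epithelial sorting adaptor gene, and Crb3, a polarity gene, were chosen after their values were seen, from genes called lower in both lines. They held 4 and 3 matches. Spint2, a protease inhibitor gene, also held 3, and no other epithelial gene with a window held more than 2. A window each of Snai1, Ap1m2 and Crb3 is shown with the E-boxes in capitals, 5' to 3' on the gene's strand.
Snai1 promoter, chr2:167537945-167538194 plus strand: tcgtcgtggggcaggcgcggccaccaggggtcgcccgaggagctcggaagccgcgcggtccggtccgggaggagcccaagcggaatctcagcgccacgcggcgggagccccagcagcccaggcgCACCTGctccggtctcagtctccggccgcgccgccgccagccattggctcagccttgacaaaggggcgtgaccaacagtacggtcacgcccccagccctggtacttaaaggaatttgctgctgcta
Ap1m2 promoter, chr9:21312334-21312583 minus strand: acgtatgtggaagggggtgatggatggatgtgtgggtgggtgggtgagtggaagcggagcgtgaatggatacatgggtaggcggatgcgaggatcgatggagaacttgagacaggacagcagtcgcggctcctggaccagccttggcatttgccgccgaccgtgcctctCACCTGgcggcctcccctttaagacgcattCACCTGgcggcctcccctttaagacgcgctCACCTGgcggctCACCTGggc
Crb3 promoter, chr17:57061951-57062200 plus strand: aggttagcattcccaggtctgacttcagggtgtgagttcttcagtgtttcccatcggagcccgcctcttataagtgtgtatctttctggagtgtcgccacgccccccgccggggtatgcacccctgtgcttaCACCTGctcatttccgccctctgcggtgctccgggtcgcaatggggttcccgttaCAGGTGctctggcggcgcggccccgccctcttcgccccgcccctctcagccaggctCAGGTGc
Ap1m2 was at 1044 ± 14.1 in WT, at 0 in all 3 KO-c19 libraries and at 0, 0 and 1.05 in KO-c43. Crb3 fell from 178 ± 10.8 to 2.96 and 0.973 (limma adjusted p = 6.12e-10 and 9.85e-11). Ap1m2 and Crb3 passed the filter only through the WT libraries, so no support is drawn from their calls. Spint2 had log2 differences of only -0.14 (KO-c19) and -0.10 (KO-c43, not called at adjusted p = 0.0502 in limma). Binding was not measured.

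Genes that act on the proteins were called in both directions, as were all genes, of which 32.8% were higher and 34.9% lower in KO-c19 and 32.5% and 33.1% for KO-c43. Of 22 tested kinases, phosphatases, ubiquitin ligases and stabilisers of these proteins, KO-c19 had 7 higher and 9 lower, and KO-c43 had 9 higher and 9 lower. Loxl3, known in human cells to stabilise SNAI1 protein, rose from 293 to 2715 and 5424. Ctdsp2, a phosphatase gene, rose from 4631 to 11077 and 9681, and the ubiquitin ligase gene Siah2 fell from 846 to 504 and 448. Of 27 tested chromatin corepressors and coactivators, KO-c19 had 10 higher and 12 lower, and KO-c43 had 10 higher and 9 lower. Ajuba, a LIM protein that binds Snail proteins, fell from 8088 to 2871 and 4649, while Ep300, an acetyltransferase of chromatin, rose from 5733 to 8850 and 7457.

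Signals that raise these factors included Smad and TAZ genes that rose. Of 32 tested, KO-c19 had 20 higher and 10 lower, and KO-c43 had 19 higher and 7 lower, with medians of 0.39 and 0.16. Of all genes, 32.8% (KO-c19) and 32.5% (KO-c43) were called higher and 34.9% and 33.1% lower. Smad3, the transcription factor of TGF-beta signalling, rose from 4834 to 12907 and 11069, Wwtr1 (TAZ) from 5616 to 15180 and 10930, and the TGF-beta coreceptor gene Tgfbr3 from 43.3 to 287 and 762.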

How the data were processed

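RNA was sequenced from 9 libraries of 4T1 cells. Each deposited value is a signal, a normalized count per gene that the authors scaled by library. Partek, STAR, cutadapt and mm10 are named in the submitters' processing notes, without versions. The read counter was not given in the sources used here. Low values lay within 0.1 of whole multiples of 1 read in 83.0% to 83.9% of cases, so whole reads were not recovered, count models were not run, and read numbers given are estimates.

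Values were fitted as log2(value + 1) with limma 3.58.1 (statmod 1.5.0, R 4.3.3), intensity trend and robust empirical Bayes, in 1 fit of the 3 group means, with two-sided tests adjusted by Benjamini-Hochberg over 17579 genes per comparison and a threshold of 0.05. The filter was at least 10 in at least 3 libraries. Ratios of scarce genes carry Clopper-Pearson 95% intervals from estimated reads. Lengths came from the GENCODE M21 transcript with the longest coding sequence. The fit was tested on simulated data. Genes were named by rule: the members and their overlapping genes, Nat10, Snai3, Prrx2, Cdh1, Vim, and up to 5 list members (8 for the epithelial and mesenchymal lists) with the smallest adjusted p over both lines. Ap1m2, Crb3, Spint2, Ppl, Spint1, Col1a1, Col1a2, Krt8, Krt18, Ptprc and Pdgfra are exceptions, named as markers or after their values were seen. Some genes that the rule names are left out of the text. The members and lists were chosen with earlier results of these data known. Alternatives were other pseudocounts, filters, scalings and empirical Bayes settings, only the groups compared, a 2-fold requirement, a replicate block and leaving out each library. Replicate numbers did not pair the libraries, since 0 of 9 pairs correlated above 0.1. The plots used matplotlib 3.10.9 under Python 3.11.15.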

Additional observations from a re-analysis of the deposited data

Results flagged for a closer look

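For 3 members the change against WT differed between the 2 knockout lines in limma's test of the difference itself (KO-c43 against KO-c19). Zeb2 was higher in KO-c43 by 0.328 on the log2 scale (adjusted p = 4.27e-06) and Twist2 by 0.751 (adjusted p = 0.035, lost without any one of 5 libraries, at 0.075 to 0.164), whereas Prrx1 differed by -2.179 (adjusted p = 7.24e-06). All 3 groups were free of overlap for each of these genes, which were picked by their calls. The share of all genes with such groups was not computed, so no support is drawn from this. Between the lines 39.4% of all genes tested were called, and the cause of the differences was not tested.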

How the results depend on the processing

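Across the alternatives, 284 member values were counted as unchanged in direction and call, 12 lost a call, 5 gained one and 2 reversed. Zeb1, not tested in the main fit, was counted as unchanged by the size of its change alone. Without the filter Zeb1 was called lower in both lines (limma adjusted p = 0.000381 and 0.000347). The reversals were Twist1 in KO-c43 against KO-c19, which was not called in any setting: -0.003 after scaling by totals (adjusted p = 0.973), and between -0.017 (without KO-c19 replicate 1, adjusted p = 0.822) and 0.104 when single libraries were left out. Requiring a 2-fold change lowered the members called between the lines to 1 from 3 and the epithelial genes lower in KO-c19 to 23 from 36. It lowered the mesenchymal genes higher to 7 and 6 from 14 in KO-c19 and KO-c43. The share of all genes at this 2-fold rule was not computed. Other such counts, 136 in all, stayed within 1.5 times. With the replicate number as a block, 5 members were called in KO-c19, 4 in KO-c43 and 3 between the lines, as without it. Of the 9 libraries, 1 correlated best with its own number. Scaling by totals moved the median of all genes by 0.10 in KO-c19, where Snai1 then changed by 0.30. Count models were not run. Depth limits Zeb1, which rested on 41 reads in WT.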

Other observations

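The genes whose pattern over the 9 libraries was most like that of a member were found by the root mean square difference of log2 values from the WT mean, among 11047 candidates. For Zeb2 these were Jak2 (0.055), Tcaf1 (0.077) and Clip2 (0.082), with 74 genes within 0.2. For Twist1 they were Col18a1 (0.057), Dab2 (0.095) and Areg (0.097), with 31 genes within 0.2. Snai1, which moved little, had 2320 genes within 0.2, led by Pmf1 (0.051), Polr2e (0.052) and Ampd2 (0.052). Twist2 and Prrx1 had none within that distance. The distance is taken over single libraries, so the spread of these scarce genes between replicates adds to it. Nothing is drawn from this lack of near genes. The nearest to Twist2 were Loxl3 (0.315), Galnt15 (0.333) and Kalrn (0.395), and the nearest to Prrx1 were Cdh17 (0.474), Ace (0.499) and Slc12a1 (0.531).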
